A study of Homo sapiens with 4 samples.

Results

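Iron and heme handling genes were followed in MDA-LM2 cells after knockdown of the transcription factor SOX4. Of the 10 genes chosen by name, FTH1, FTL, TFRC, HMOX1, BLVRA, BLVRB, NCOA4, IREB2, ACO1 and SLC11A2, 8 had an annotated probe, with 9 probes among the 47323 on the array, and all 9 probes passed the detection filter. FTH1 and IREB2 had no probe named in the platform annotation, so each is given only as a ratio from the authors' deposited table. MDA-LM2 is an established human line selected from MDA-MB-231 breast cancer cells for growth in the lung. The groups were siSOX4 (cells transfected with siRNA against SOX4, 2 samples) and siControl (cells transfected with control siRNA, 2 samples), both with the same lipofection reagent and with RNA taken 48 h later. All 4 samples are of 1 cell line. The design text speaks of a pair of SOX4 siRNAs, but the labels do not say which sample received which, and whether the samples within a group were grown separately is not recorded. The p-values therefore measure only the spread between these arrays, which may be technical. Each array measures RNA pooled from all cells of a sample, so less transcript in every cell and fewer cells with the transcript cannot be told apart.

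Cells take up iron bound to transferrin through the transferrin receptor, move it out of the endosome through a divalent metal transporter, and store what they do not use inside ferritin, a shell of heavy and light chains. Iron regulatory proteins adjust this traffic by binding iron-responsive elements, short hairpins in ferritin and transferrin receptor messages. Bound ferritin message is held back from translation and bound receptor message is protected from decay, so part of this control does not show in ferritin transcript levels. Heme oxygenase opens the heme ring and frees its iron, and biliverdin reductases turn the product into bilirubin. The stress factor NRF2 is a known activator of the ferritin genes and of HMOX1.

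The binding site of the regulatory proteins was searched for only in the first 50 transcribed bases of the genes with a start window. A site elsewhere in a message could not be found this way. The match of letters in FTL is shown because ACO1 and IREB2 encode the proteins that bind such a site. The first 50 transcribed bases of FTL in RefSeq (GRCh38.p14, plus strand) hold a C, 5 bases of any kind and then CAGTG, the letters of the bulge and loop of an iron-responsive element, at chr19:48965334-48965358. The capitals mark that C and the letters CAGTG.
FTL: tctcttgCttcaaCAGTGtttggac
On the transcribed strand the same letters occurred in the first 50 bases of 1.71% of 35116 RefSeq start windows (3.33% counting both strands), and in 1 of the 13 windows of the iron and heme genes. FTH1 and HMOX1 had no window in the table used. Windows of 250 bases before to 50 after the start were also searched on both strands for ACAAAG and ACAATG, core letters bound by SOX factors. ACAAAG occurred in 3 of the 13 windows (16.1% of all windows) and ACAATG in 1 (10.8%), with matches at alternative starts of SLC11A2 and at IREB2 and NCOA4. They are shown with the core, or its reverse complement, in capitals, on the strand of the gene and all in GRCh38.p14, because SOX4 is the factor that was knocked down.
SLC11A2, chr12:51009229-51009254, minus strand: tagtcagagtACAAAGggttcctgct
SLC11A2, chr12:51029003-51029028, minus strand: tcctatgcagCTTTGTcgtctaagtt
IREB2, chr15:78438110-78438135, plus strand: ccttccctttCTTTGTtttcctgtcc
NCOA4, chr10:46020086-46020111, minus strand: ggcttaggctCATTGTgatttgaatt
The same windows were searched on both strands for the antioxidant response element, TGAC, 3 bases of any kind and then GC. It occurred in 1 of the 13 windows, of NCOA4, and in 13.3% of all windows. All of these are matches of letters and not measured binding.

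SOX4 itself had a lower signal in both siSOX4 samples, a difference of -0.35 ± 0.19 log2 units that did not pass the test (adjusted p = 0.487, limma). After the ± sign stands limma's standard error of the group difference, with n = 2 arrays per group. Between 39.3% and 42.9% of probes were detected per array. Agreement within groups was unequal: 364 of 11389 genes differed more than 2-fold from one siSOX4 sample to the other, against 10 for the pair of controls. The markers of a mesenchymal breast cancer line (VIM, CD44, AXL, CAV1, MSN) were detected on all 4 arrays, and of 5 luminal markers 4 were detected on none. Of the annotated erythroid markers 4 of 8 were detected on at least 1 array, with a summed signal of 584 to 597 in siSOX4 samples and 596 to 640 in controls. For macrophage markers it was 6 of 7, with 657 to 788 in siSOX4 samples and 709 to 719 in controls. On all 4 arrays only 1 erythroid and 3 macrophage markers were detected. These sums take 1 probe per annotated marker, where the median over all probes of an array was 77 to 82. The 5 mesenchymal markers summed to 53513 and 56722 in siSOX4 samples 1 and 2 and to 60540 and 58100 in controls 1 and 2.

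Most of the iron and heme genes had nearly the same signal in both groups. Of the 8 measured genes, 4 were higher and 4 lower in the group difference, with a median of -0.01 log2 units, against a median of -0.02 over all 11389 genes. None passed the threshold of an adjusted p under 0.05 over all probes kept (0 of 8, limma), and over all genes 0% passed. At an unadjusted p under 0.05 there was 1 of the 8, ACO1, where 14.8% of all genes lay (7.44% higher and 7.39% lower). In 2 of the 8 the groups did not overlap, ACO1 with both siSOX4 samples above both controls and BLVRB with both below, and the same held for 47.7% of all genes (22.7% with both siSOX4 samples above and 25.1% with both below). The genes that departed most from the controls were HMOX1, in siSOX4 sample 2 alone, ACO1 and BLVRB.

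**Figure D1:**
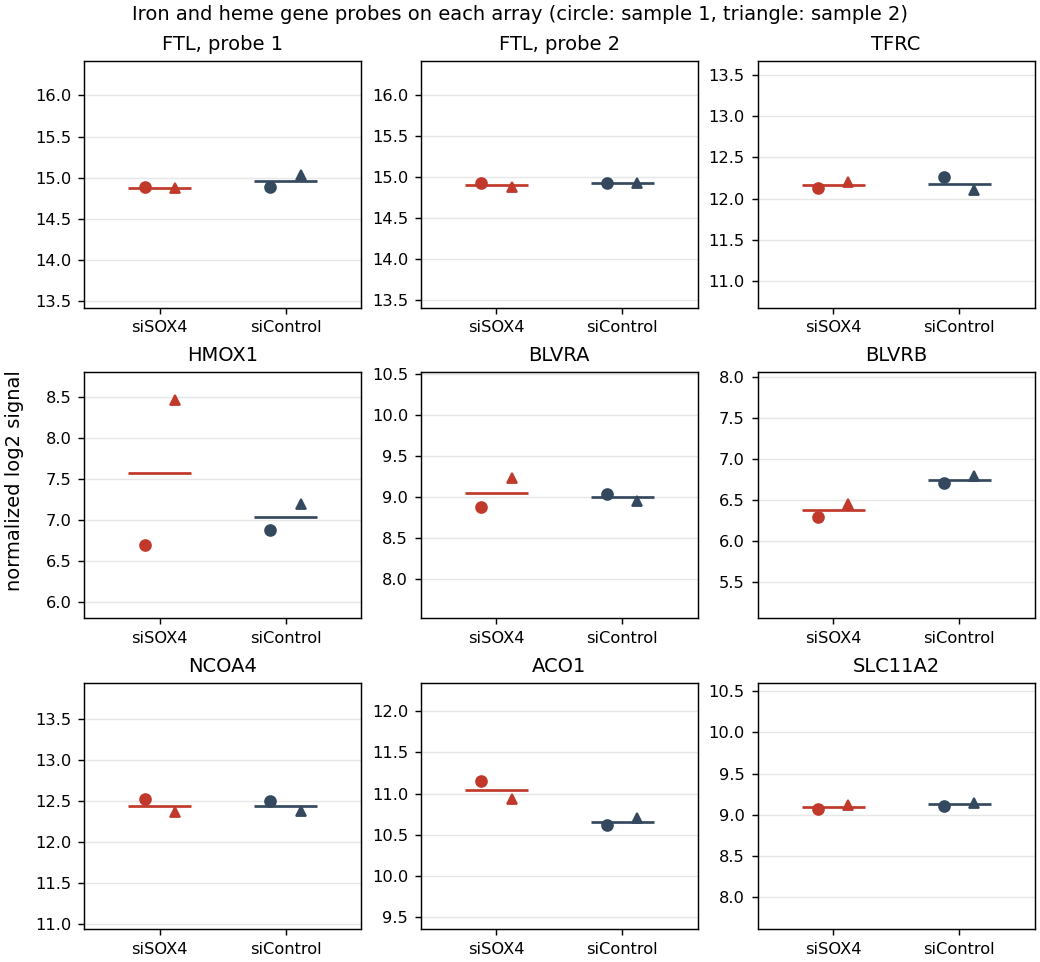
Normalized log2 signal of the 9 probes in each sample, with siSOX4 left of siControl. Circles are samples 1, triangles samples 2 and bars the group means, and every panel spans the same log2 range. HMOX1 in siSOX4 sample 2 stands above the other 3 arrays, ACO1 is higher and BLVRB lower in both siSOX4 samples, and the other panels lie nearly level.

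The ferritin light chain gene FTL, whose product helps to lay down the iron core of the shell, was measured by 2 probes. The first probe had deposited intensities of 28379 and 30220 in siSOX4 samples 1 and 2, against 31076 and 34571 in siControl samples 1 and 2. Its second probe read 28996 and 30258 in siSOX4 samples, against 31458 and 32879 in controls. On both probes the unscaled intensities of the siSOX4 samples lay below those of both controls. After division by each array's median the first probe stood at 346 and 395 in siSOX4 samples and at 377 and 440 in controls, which overlap. After quantile normalization the differences were -0.08 ± 0.10 and -0.02 ± 0.10 log2 units (adjusted p = 0.784 and 0.949, limma). Both probes ranked between 1 and 7 of 47323 by brightness on every array, and at such ranks quantile normalization keeps little more than the rank. In the authors' deposited table, which divides the siControl mean by the siSOX4 mean, FTL had ratios of 1.10 and 1.07.

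FTH1, the ferritin heavy chain, which oxidizes incoming iron, had a siControl to siSOX4 ratio of 1.40 in the authors' deposited table, so the siSOX4 mean was 0.714 of the siControl mean. Of the 43961 rows of the authors' deposited table, 618 (1.41%) had a ratio at least this high. These rows were not filtered on detection, so this share has another base than the shares over the 11389 genes. No probe is named for FTH1 in the annotation used, so its values by sample were not looked up and no test was made. FTH1 also has processed pseudogenes with nearly the same sequence, and a probe for it may bind their transcripts.

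NCOA4, the receptor that carries ferritin to lysosomes when iron is needed, was level. Its intensities were 5612 and 5341 in siSOX4 samples 1 and 2, against 6096 and 5478 in controls 1 and 2. The groups overlapped after normalization, and the difference was 0.0012 ± 0.13 log2 units, with a 95% interval from -0.30 to 0.30. PCBP1 and PCBP2, which deliver iron to ferritin, were the other measured genes of iron storage. PCBP1 differed by -0.08 ± 0.15 and PCBP2 by 0.12 ± 0.13 log2 units, while further PCBP2 probes gave -0.06, -0.38 and 0.31, so the probes of that gene disagreed in direction. Over the 4 measured of 6 genes of the storage list, 2 were higher and 2 lower, with a median of -0.04.

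Transferrin receptor message, TFRC, stood at 4253 and 4775 in siSOX4 samples 1 and 2 and at 5190 and 4539 in siControl samples 1 and 2. In these intensities control 1 was the highest of the 4 and siSOX4 sample 1 the lowest, and the groups overlapped. The difference was -0.02 ± 0.13 log2 units with a 95% interval from -0.31 to 0.28. SLC11A2, the endosomal iron transporter also called DMT1, had 566 and 600 in siSOX4 samples, against 622 and 629 in controls. Its normalized values overlapped, at -0.04 ± 0.16 log2 units with an interval from -0.41 to 0.33.

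Among the other genes of iron uptake and export, STEAP3 had the largest difference. STEAP3 is the endosomal reductase that turns ferric into ferrous iron before transport by DMT1. It read 329 and 524 in siSOX4 samples 1 and 2, against 197 and 235 in controls 1 and 2. Both siSOX4 samples were above both controls, by 0.87 and 1.56 log2 units against the control mean, and the difference of 1.22 ± 0.26 did not pass over all probes (adjusted p = 0.157, limma). This value comes from 1 of 3 STEAP3 probes, the other 2 being detected on no array. SLC39A14, a transporter of zinc and of iron not bound to transferrin, read 531 and 499 in siSOX4 samples and 406 and 449 in controls, a difference of 0.38 ± 0.18 (adjusted p = 0.428, limma). Of the 11 genes listed for uptake and export 5 were measured, 3 higher and 2 lower with a median of 0.18. The iron exporter gene SLC40A1 was not well above background, with each of its 2 probes detected on 1 of 4 arrays.

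ACO1 encodes iron regulatory protein 1, which is a cytosolic aconitase when it holds an iron-sulfur cluster and binds iron-responsive elements when it does not. Its intensities were 2224 and 1993 in siSOX4 samples 1 and 2 and 1678 and 1756 in siControl samples 1 and 2. Both siSOX4 samples were above both controls, and the lower of them was above the higher control by more than the controls lay apart. The difference was 0.39 ± 0.15 log2 units, or 1.31-fold, with a 95% interval from 0.04 to 0.73 (unadjusted p = 0.0333, adjusted p = 0.345, limma). The unadjusted p was no longer under 0.05 with median scaling, with the deposited ratios on a log2 scale or without a variance trend. Over all genes 23.2% had a larger absolute difference. With siSOX4 sample 2 left out the lone remaining sample is assumed to vary like the controls, and the value became 0.50 with an adjusted p of 0.0025 (limma), where the alternatives without such omissions ranged from 0.321 to 0.544. IREB2, iron regulatory protein 2, had a siControl to siSOX4 ratio of 1.06 in the authors' deposited table, and ACO1 had 0.804 there. FBXL5, the iron-sensing subunit of the ligase that marks IREB2 for degradation, differed by -0.06 ± 0.17 log2 units, and a second probe gave -0.29.

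**Figure D2:**
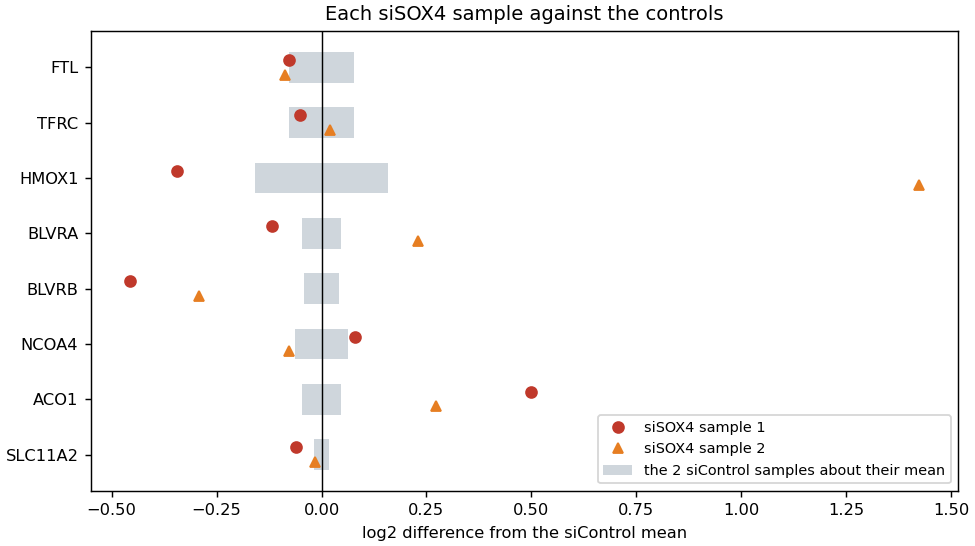
Log2 difference of siSOX4 sample 1 (circles) and siSOX4 sample 2 (triangles) from the siControl mean for the 8 measured genes, with grey bars spanning the 2 controls. HMOX1 lies at -0.34 in siSOX4 sample 1 and at 1.42 in sample 2, while ACO1 and BLVRB keep 1 direction in both.

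HMOX1, the inducible heme oxygenase, was the gene on which the siSOX4 samples differed most. It read 154 in siSOX4 sample 1 and 404 in siSOX4 sample 2, against 174 and 200 in siControl samples 1 and 2. Sample 1 was thus the lowest of the 4 arrays and sample 2 the highest, on either side of both controls. Against the control mean the normalized difference was -0.34 log2 units in siSOX4 sample 1 and 1.42 in siSOX4 sample 2, while the controls differed from each other by -0.32 (1 minus 2). HMOX1 was the 1 of the 8 genes to differ more than 2-fold from one siSOX4 sample to the other, as 3.2% of all genes did, and 16 of 11389 genes differed more. The group difference of 0.54 ± 0.49 describes neither sample, and its 95% interval ran from -0.59 to 1.67 (adjusted p = 0.687, limma). Without siSOX4 sample 1 the difference was 1.42 and without siSOX4 sample 2 it was -0.34, each from a lone siSOX4 sample. Over the alternatives that kept all 4 arrays the difference lay between 0.44 and 0.54 (adjusted p from 0.474 to 0.777, limma). HMOX1 was detected on every array, and its ratio of siControl to siSOX4 in the authors' deposited table, 0.651, averages over the same pair of unlike samples.

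BLVRA and BLVRB, the enzymes that reduce biliverdin, had smaller differences than HMOX1 showed in siSOX4 sample 2. BLVRA, the main reductase of adult tissue, had 500 and 644 in siSOX4 samples 1 and 2, against 599 and 556 in controls 1 and 2. Sample 1 was below and sample 2 above both controls, by -0.12 and 0.23 log2 units against their mean, and the difference was 0.06 ± 0.19. BLVRB, which also acts as a flavin reductase, had 130 and 138 in siSOX4 samples and 160 and 163 in controls. Both siSOX4 samples were below both controls, by -0.45 and -0.29 log2 units against their mean. The controls were 0.08 apart, so each sample was further from the controls than they were from each other. The difference of -0.37 ± 0.20, or -22.8% in signal, did not pass (adjusted p = 0.483, limma), and 24.7% of all genes had a larger one. It was -0.24 without background correction, and BLVRB had a siControl to siSOX4 ratio of 1.19 in the authors' deposited table. In 4 of the 8 genes (TFRC, HMOX1, BLVRA, NCOA4) the siSOX4 samples had opposite signs against the control mean, as in 34.7% of all genes.

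Of the list of heme breakdown and transport, 8 of 9 genes were measured, with 2 higher and 6 lower and a median of -0.16 log2 units. In 5 of them both siSOX4 samples lay below both controls (25.1% over all genes), namely BLVRB, HMOX2, FLVCR1, FLVCR2 and ABCG2, and none passed the test. Of these, ABCG2 (intensities of 83 to 92, detected on 3 of 4 arrays) and FLVCR1 (92 to 104) were near the array medians of 77 to 82. Their differences were -0.14 and -0.18. HMOX2, the constitutive heme oxygenase, read 158 and 121 in siSOX4 samples 1 and 2, against 170 and 163 in controls. That is a difference of -0.35 ± 0.25, which came mostly from sample 2, at -0.64 against -0.05 in sample 1. SLC48A1, which exports heme from lysosomes, differed by -0.30 ± 0.24, and its second probe by -0.18. The single probe for BACH1, the repressor of HMOX1 that heme inactivates, was detected on no array.

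Heme synthesis genes went in both directions. Of 8 measured of 9 listed, 3 were higher and 5 lower, with a median of -0.05, and none passed. FECH, ferrochelatase, which inserts iron into the porphyrin ring, read 149 and 168 in siSOX4 samples, against 115 and 130 in controls. The difference was 0.67 ± 0.23 (adjusted p = 0.303, limma) with both siSOX4 samples above both controls. The siSOX4 to siControl ratio of mean intensities was 1.30, against 1.59 after background correction and normalization. A second FECH probe was detected on no array. UROS, which closes the ring earlier in the pathway, read 521 and 698 in siSOX4 samples, against 875 and 792 in controls, a difference of -0.44 ± 0.19 (adjusted p = 0.377, limma). Against the control mean, siSOX4 sample 1 had a median of -0.23 over these genes and siSOX4 sample 2 one of 0.08, while control 1 minus control 2 gave -0.22. Mitochondrial iron and iron-sulfur cluster genes were 7 higher and 7 lower among 14 measured of 17, with a median of -0.01. NUBP1 of cytosolic cluster assembly had 0.47 ± 0.21. CISD1, a cluster protein of the outer mitochondrial membrane, had -0.36 ± 0.18, with a second probe at -0.42.

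**Figure D3:**
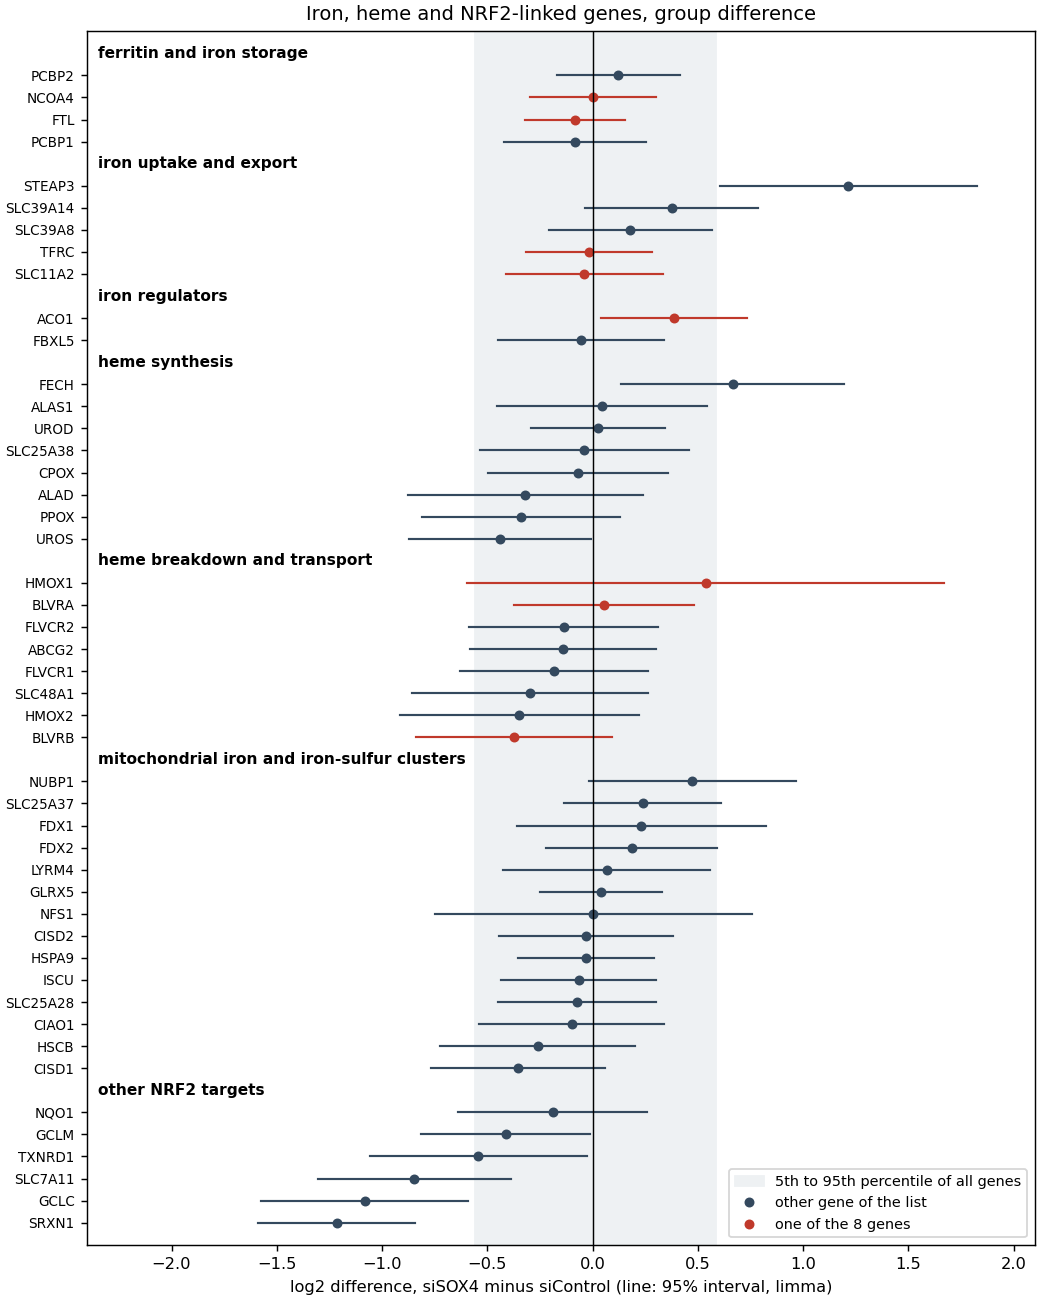
Group difference (points) with its 95% interval from limma (lines) for each measured gene of the 7 lists, on the log2 scale with positive values higher in siSOX4. The 8 genes described first are in red and the grey band spans the 5th to 95th percentile of all genes, from -0.56 to 0.59. STEAP3 and FECH lie above the band, and GCLC, SRXN1 and SLC7A11 below it.

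Other targets of NRF2 were set beside the iron and heme genes. All 6 listed (NQO1, GCLM, GCLC, TXNRD1, SRXN1, SLC7A11) were lower, as were 5922 of all 11389 genes, and 5 of the 6 had both siSOX4 samples below both controls, as had 25.1% of all genes. Their median difference was -0.69 log2 units, -0.91 in siSOX4 sample 1 alone and -0.49 in siSOX4 sample 2 alone. Second probes of GCLM and of NQO1 had overlapping groups, at -0.47 and -0.03. A second TXNRD1 probe had both siSOX4 samples below both controls, at -0.62. A second GCLC probe was detected on no array. None of the 6 passed over all probes. At an unadjusted p under 0.05 (limma) there were 5 of the 6, all lower, where 7.39% of all genes were lower. The list was chosen with earlier results of these data known. GCLC is the catalytic subunit of glutamate-cysteine ligase, an enzyme of glutathione synthesis. It read 290 and 415 in siSOX4 samples and 722 and 690 in controls, a difference of -1.08 ± 0.21 (adjusted p = 0.139, limma). SRXN1, sulfiredoxin, had -1.22 ± 0.16 (adjusted p = 0.0844, limma). Beside these, FTL stood at -0.08 (-0.14 with median scaling), BLVRB at -0.37 and BLVRA at 0.06. HMOX1 had a group difference of 0.54, made of -0.34 in siSOX4 sample 1 and 1.42 in siSOX4 sample 2. For FTH1 there was only the authors' siControl to siSOX4 ratio of 1.4, with no values by sample. Whether the iron and heme genes differ from this list was not tested.

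Over the 33 further iron and heme genes measured of 49 listed beside the 10, 14 were higher and 19 lower, with a median of -0.04, and 0 passed in limma, 3 having an unadjusted p under 0.05 (STEAP3, FECH and UROS), where 14.8% of all genes lay. In 16 of the 33 the groups did not overlap, 8 in each direction, against 47.7% over all genes.

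Genes with the most similar pattern over the 4 arrays were found for HMOX1, ACO1 and BLVRB by the root mean square distance of log2 values, each gene centred on its own mean. Nearest to HMOX1 were CCDC71 and HLA-DMB, at distances of 0.101 and 0.104, and 0 of the other genes lay within 0.1. Both shared the split between the siSOX4 samples, CCDC71 with -0.21 and 1.37 and HLA-DMB with -0.15 and 1.33 in siSOX4 samples 1 and 2. For ACO1 the nearest were CRADD (0.012) and SKA2 (0.013) and for BLVRB GBE1 (0.0052) and DYNLT3 (0.0083), with 569 and 711 genes within 0.1. The distance is on the log2 scale, so these counts also follow how far each gene's own arrays lie apart, which was furthest for HMOX1 of these 3.

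**Figure D4:**
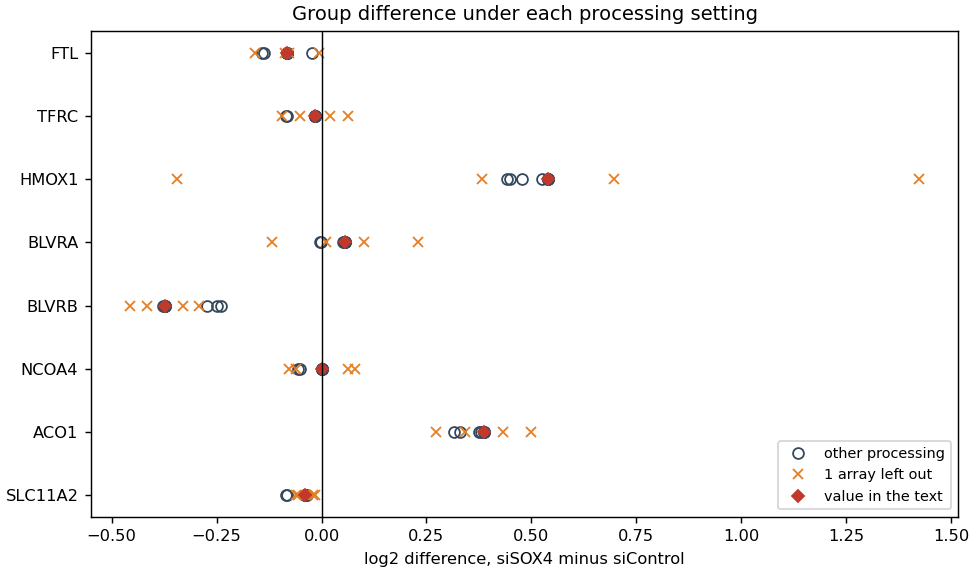
Group difference of the 8 genes on the log2 scale as given in the text (diamonds), under other processing with all 4 arrays (open circles) and with 1 array left out (crosses). For FTL 1 open circle is its second probe, at -0.02. HMOX1 ranges from -0.34 to 1.42 when an array is left out, ACO1 stays above 0 and BLVRB below 0 throughout.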

How the data were processed

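Total RNA was measured on 4 single-colour Illumina expression BeadChips. Per the file headers, the authors' deposited signal table gives every probe, on every array, its intensity with a detection p-value. The intensities are linear, and the values show no background subtraction or scaling. No scanner software is named by the labels or headers. Values of the deposited series matrix are the ratio of each intensity to its array's median, recomputed here to a relative difference of 1.08e-09. In the authors' deposited comparison table each accession has a ratio equal to the siControl mean over the siSOX4 mean of that matrix for 100% of 16367 uniquely matched probes (tolerance 1e-06).

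Signals were processed with limma 3.58.1 in R 4.3.3 (neqc: normexp with negative controls inferred from detection p-values, offset 16, quantile normalization, log2). Of 47323 probes, 20118 were kept, those whose detection p-value was below 0.05 on 2 or more arrays. Gene symbols came from the platform annotation: 30113 probes had 1 symbol, 8 had several and 17202 are unnamed here. Where a gene had several kept probes the brightest on average stood for it, which gave 11389 genes. The test was siSOX4 minus siControl (lmFit, then eBayes with trend). Two-sided p-values were adjusted by Benjamini-Hochberg across the kept probes, and 0.05 was the threshold. With 2 arrays per group the smallest exact permutation p is 0.333, so no such test was used. The number of arrays limits the precision. The fit was tested on simulated arrays. Start windows came from RefSeq (GRCh38.p14).

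The genes and lists were chosen with earlier results of these data known. Named are the 10 genes, SOX4, the 2 other genes of largest absolute difference in each list, the 2 genes most like each of the 3 members of largest difference, and genes chosen after their values were seen: those counted in sets of 5 or fewer, those named with an undetected or further probe, and list members named for their role. Alternatives tried were no background correction, median scaling, the deposited ratios on a log2 scale, other detection filters, an offset of 50, no variance trend, the replicate number as a block and leaving out each array.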

Additional observations from a re-analysis of the deposited data

How the results depend on the processing

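None of the 8 measured genes chosen by name passed the threshold under any alternative that kept all 4 arrays, and ACO1, BLVRB, FTL, TFRC, SLC11A2 and HMOX1 kept their direction in all of those. With median scaling BLVRA (-0.00069) and NCOA4 (-0.052) turned negative, and likewise with the deposited ratios on a log2 scale (-0.0035 and -0.056), all within their standard errors. The number of genes past the threshold, 0 in limma with 1689 at an unadjusted p under 0.05, became 1 with the deposited ratios, 77 with no detection filter and 133 with the replicate block, which changed no call of those 8 genes. The further genes of the lists were not followed singly through the alternatives. The correlation of deviations between samples of the same replicate number was 0.11. With 2 pairs this cannot decide whether the replicate numbers pair the samples. Leaving out 1 array in turn gave 0 to 2811 genes and 0 to 1 of the 8, with TFRC between -0.094 and 0.063, HMOX1 between -0.34 and 1.42, BLVRA between -0.12 and 0.23, NCOA4 between -0.078 and 0.080 and ACO1 between 0.27 and 0.50. The 2811 and 1359 genes came from leaving out siSOX4 sample 2 and sample 1, and the fits without a control array gave 0. Near background the correction matters: without it HMOX1 in siSOX4 sample 2 was 1.14 and BLVRB -0.24. A slide block was not run, as the files used give no slide. The ferritin signals near the top of the range limit what a ratio there can show.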

Other observations

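On siSOX4 sample 2, 8 of 11389 genes stood more than 1 log2 unit above each of the other 3 arrays, against 67 genes on siSOX4 sample 1 and 0 on each control. HMOX1 was the second of these 8, at 1.26 above the next array, after SHROOM2 at 1.49. Also among them were MYL9 (1.26), ENG (1.05) and CCDC71 (1.11), and CD74 (1.04), HLA-DMA (1.03) and HLA-DMB (1.16), which serve antigen presentation on major histocompatibility complex class II. These genes were picked after their values were seen, in 1 sample, and no test was made.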
